A study of Mus musculus with 12 samples.

Results

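Interferon-stimulated genes were followed across 12 mouse lung arrays from a study of ventilator-induced lung injury (VILI) and Gadd45a knockout. The 39 genes are a list of type I and type II interferon-stimulated genes and their regulators, and their probe sets were found by gene symbol. They were divided by the interferon for which they are best known into a type I class of 27 genes and an interferon gamma class of 12, although many respond to both interferons. A probe set of their own was found for 37 genes, 57 probe sets in all among 45037. After a filter on low values, 32 genes were tested (21 of the type I class and 11 of the interferon gamma class) among 10996 genes of the array.

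Groups follow the sample titles, since the description field calls every sample that of a control animal. The lungs came from mice aged 8 to 12 weeks, 3 mice and 3 arrays per group. Knockout VILI lungs and wild type VILI lungs had been ventilated for 4 hours, with tidal volumes of 30 ml/kg and 65 breaths each minute. Knockout SB lungs and wild type SB lungs carry the treatment label SB, which the labels do not spell out, and the series design calls the wild type SB group the control. The knockout is GADD45-/- in sample titles, GADD-/- elsewhere in the VILI samples' labels and GADD45a in the title of the series. The labels give neither strain nor sex, nor how the gene was deleted. All values are log2 expression values normalized by the authors, so that equal differences are equal ratios.

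Interferons are secreted proteins that warn tissue of infection or damage. Type I interferons act through the Ifnar1 and Ifnar2 receptor and bring Stat2 and Irf9 to a DNA element called the interferon-stimulated response element (ISRE), which drives antiviral genes such as the Ifit, Oas and Mx families. Interferon gamma, made mainly by T and NK cells, acts through Ifngr1 and Ifngr2 and a DNA element called the gamma-activated site (GAS), and drives Irf1, the chemokines Cxcl9 and Cxcl10, the GTPases of the Gbp and Irg families and genes of antigen presentation.

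Array medians ran from 4.37 to 4.59, and pairs of arrays of 1 group correlated at 0.963 to 0.995 across genes. The number of arrays limits the precision. Lung identity was clear from the defining markers of type II epithelium (7 tested of 8), which averaged 12.66 to 13.30 on every array, and from those of endothelium, which averaged 11.08 to 11.97. Gadd45a, the deleted stress-response gene, lay at 5.36 to 6.02 in knockout VILI, 9.75 to 10.33 in wild type VILI, 4.58 to 6.15 in knockout SB and 8.62 to 9.51 in wild type SB. The position of its probes relative to the deletion is unknown. Replicate 3 of knockout VILI and replicate 3 of knockout SB stood apart from the other arrays, with mean levels of 6 tested B cell markers of 9.80 and 8.88, against 5.17 to 6.97 on the other 10 arrays. For many results, though not for all, values without 1 or both of them are also given. In whole lung, fewer cells of a type and less RNA per cell cannot be told apart.

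Promoters of the genes the results turn on are shown for their interferon elements. RefSeq promoters of build GRCm38.p6 were found for 30 of the 39 genes, and the 250 bases before the annotated start were searched on both strands for the ISRE core, spelled GAAA, any 2 bases, GAAA, and for the GAS TTCNNNGAA, where N is any base. The ISRE core was found in 14 of the 30 genes (46.7%), against 3.46% of 27025 genes in the promoter table. Cores may overlap one another, as they do in Irgm1. Of the 6 genes that passed the test for VILI below, Cxcl10, Ifit1, Rsad2, Trim30a and Irgm1 hold it and Irf9 does not. The sequences run 5′ to 3′ on the gene's strand and end at the base before the start, with capitals marking the ISRE core or, in Irf1, the GAS. They are Cxcl10 (chr5:92348890-92349139, minus strand, core 213 bases before the start), Ifit1 (chr19:34640639-34640888, plus strand, cores 104 and 85 bases before it), Rsad2 (chr12:26456453-26456702, minus strand, core 120 bases before it), Trim30a (chr7:104465194-104465443, minus strand, core 36 bases before it), Irgm1 (chr11:48871421-48871670, minus strand, cores 30 and 24 bases before it) and Irf1 (chr11:53769764-53770013, plus strand, GAS 90 bases before it). Trim30a and Irf1 each have another annotated start whose window holds no match.
Cxcl10: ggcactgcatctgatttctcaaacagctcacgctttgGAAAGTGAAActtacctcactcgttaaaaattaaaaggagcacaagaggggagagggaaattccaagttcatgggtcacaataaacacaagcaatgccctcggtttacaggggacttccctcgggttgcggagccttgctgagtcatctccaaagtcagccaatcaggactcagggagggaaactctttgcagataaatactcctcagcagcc
Ifit1: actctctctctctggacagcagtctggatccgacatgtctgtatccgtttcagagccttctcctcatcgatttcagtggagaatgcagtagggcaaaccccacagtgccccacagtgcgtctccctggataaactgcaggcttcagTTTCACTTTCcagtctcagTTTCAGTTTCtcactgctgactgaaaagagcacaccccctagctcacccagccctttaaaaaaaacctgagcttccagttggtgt
Rsad2: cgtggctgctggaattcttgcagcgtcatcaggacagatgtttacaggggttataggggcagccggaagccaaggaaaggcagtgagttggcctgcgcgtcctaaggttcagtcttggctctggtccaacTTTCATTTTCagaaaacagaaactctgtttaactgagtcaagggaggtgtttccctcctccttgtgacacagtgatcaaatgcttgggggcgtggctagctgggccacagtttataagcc
Trim30a: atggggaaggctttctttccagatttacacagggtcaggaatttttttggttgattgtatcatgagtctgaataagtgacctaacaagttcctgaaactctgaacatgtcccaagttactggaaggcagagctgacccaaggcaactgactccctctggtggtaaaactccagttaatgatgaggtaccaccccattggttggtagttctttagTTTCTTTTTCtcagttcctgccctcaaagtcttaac
Irgm1: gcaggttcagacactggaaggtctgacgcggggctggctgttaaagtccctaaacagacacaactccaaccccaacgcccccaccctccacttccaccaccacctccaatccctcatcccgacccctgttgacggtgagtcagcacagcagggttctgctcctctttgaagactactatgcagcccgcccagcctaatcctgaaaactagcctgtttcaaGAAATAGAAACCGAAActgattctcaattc
Irf1: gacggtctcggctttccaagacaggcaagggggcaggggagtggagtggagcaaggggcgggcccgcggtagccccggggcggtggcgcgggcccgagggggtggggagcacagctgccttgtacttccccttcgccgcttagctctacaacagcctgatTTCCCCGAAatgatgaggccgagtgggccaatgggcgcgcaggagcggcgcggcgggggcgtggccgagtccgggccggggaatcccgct

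Both classes held these letters. The ISRE core was found in 9 of 19 type I class promoters (47.4%) and in 5 of 11 interferon gamma class promoters (45.5%). The GAS was found in 6 of 30 members (20%), against 8.13% of all genes, in Bst2, Ifit2 and Oas1a of the type I class and in Igtp, Irf1 and Psmb8 of the interferon gamma class. A match is a run of letters, and binding was not measured.

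VILI lungs were first compared with SB lungs, averaged over both genotypes. Of the 32 genes, 6 rose and 0 fell at a limma adjusted p under 0.05: Cxcl10, Rsad2, Irf9, Ifit1, Trim30a and Irgm1. That is 18.8% of the members, against 8.42% of all genes tested that rose and 9.39% that fell. Counted in either direction, the members' share lay close to the 17.8% of all genes called, and at an unadjusted p under 0.05 the count was 9 (28.1%), against 33.9% of all genes. All 6 calls of the members were higher, while the background held both directions. The background split depends on scaling, with 926 genes higher and 1032 lower as deposited, 663 and 1157 with arrays centred on their medians, and 807 and 1383 after quantile normalization. The median change of the 32 was 0.25, against -0.03 over all genes. The type I class had 4 of 21 genes called and a median of 0.30. Without knockout VILI replicate 3 the medians were 0.14 for the members and 0.15 for the type I class. The interferon gamma class had 2 of 11 called and a median of 0.02, which turned to -0.02 with centred arrays and to -0.03 after quantile normalization.

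Cxcl10, a chemokine that draws activated T and NK cells, had the largest change. Its 3 values were 8.06, 6.40 and 10.19 in knockout VILI, 5.81, 5.87 and 5.67 in wild type VILI, 5.27, 4.65 and 5.36 in knockout SB and 3.99, 4.96 and 5.38 in wild type SB. Every VILI array lay above every SB array of either genotype, and the knockout VILI arrays lay highest and spread furthest. The average VILI change was 2.07 (SE 0.51, limma adjusted p = 0.0189), or 4.19-fold. In the fits that leave out 1 array and in the other alternatives, 21 in all, the adjusted p stayed between 0.00424 and 0.0460.

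Rsad2 encodes viperin, an antiviral enzyme that makes a chain-terminating nucleotide. It read 7.85, 7.67 and 9.59 in knockout VILI, 8.41, 7.94 and 8.07 in wild type VILI, 6.85, 7.04 and 6.35 in knockout SB and 7.32, 6.91 and 6.89 in wild type SB. The VILI arrays of both genotypes lay above all SB arrays, and knockout VILI replicate 3 lay far above the rest. The average change was 1.36 (SE 0.29, adjusted p = 0.0110), or 2.57-fold, and 0.96 without replicate 3 of both knockout groups (adjusted p = 0.00454, with 0.00157 to 0.0306 over its 21 alternatives). The other kept probe sets of Rsad2 were higher after VILI by 2.39 and 1.19. With every kept probe set tested, the first of these passed in knockout, at 2.68 (adjusted p = 0.00964), and in wild type, at 2.10 (adjusted p = 0.0251).

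Irf9, the DNA-binding subunit of the type I complex, gave close changes in both genotypes. It read 9.48, 10.00 and 9.55 in knockout VILI, 9.51, 9.36 and 9.14 in wild type VILI, 9.21, 8.47 and 9.10 in knockout SB and 8.80, 8.24 and 9.002 in wild type SB. Within each genotype the VILI arrays lay above the SB arrays. The average change was 0.70 (SE 0.17, adjusted p = 0.0175), made of 0.75 in knockout and 0.66 in wild type. It passed in all 21 alternatives, with an adjusted p of 0.0171 to 0.0451.

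Ifit1, which binds foreign RNA ends, passed on average over the genotypes. It read 8.24, 8.53 and 8.49 in knockout VILI, 8.29, 8.00 and 7.71 in wild type VILI, 7.07, 6.69 and 7.76 in knockout SB and 7.81, 7.79 and 8.10 in wild type SB. Knockout SB lay lowest, below every wild type SB array, and knockout VILI lay above knockout SB without overlap, while wild type VILI overlapped wild type SB. The average change was 0.67 (SE 0.17, adjusted p = 0.0226). The call was lost without wild type VILI replicate 1 (0.60, adjusted p = 0.0564), wild type VILI replicate 2 (0.68, adjusted p = 0.0521) or knockout VILI replicate 2 (0.65, adjusted p = 0.0552), within a range of 0.00467 to 0.0564.

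Trim30a, a mouse tripartite motif protein that dampens Toll-like receptor signalling, read 9.52, 10.00 and 10.47 in knockout VILI, 9.32, 9.56 and 9.28 in wild type VILI, 9.46, 8.90 and 9.18 in knockout SB and 8.99, 8.63 and 9.18 in wild type SB. Its VILI arrays lay above the SB arrays of the same genotype, by a narrow margin in both. The average change was 0.63 (SE 0.16, adjusted p = 0.0232). The call was lost without wild type SB replicate 2 (0.56), wild type VILI replicate 2 (0.59), knockout VILI replicate 2 (0.63) or replicate 3 of both knockout groups (0.52), with an adjusted p of 0.00701 to 0.0623 over 21 alternatives. The other kept probe set was higher by 0.74 in knockout and 0.14 in wild type.

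Irgm1, a GTPase that restrains the other Irg proteins on cell membranes, stood at the threshold. It read 8.57, 9.27 and 8.998 in knockout VILI, 8.85, 8.48 and 8.09 in wild type VILI, 8.91, 8.06 and 8.11 in knockout SB and 7.91, 7.66 and 8.05 in wild type SB. Knockout SB replicate 1 reached into the range of knockout VILI, and the wild type groups did not overlap. The average change was 0.59 (SE 0.19, adjusted p = 0.0498), and 4 of 21 alternatives kept the call, with an adjusted p of 0.0209 to 0.135. Leaving out 1 array ended it in 9 of 12 fits, at changes of 0.50 to 0.64, and kept it without knockout SB replicate 1, wild type VILI replicate 3 or knockout VILI replicate 1.

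**Figure D1:**
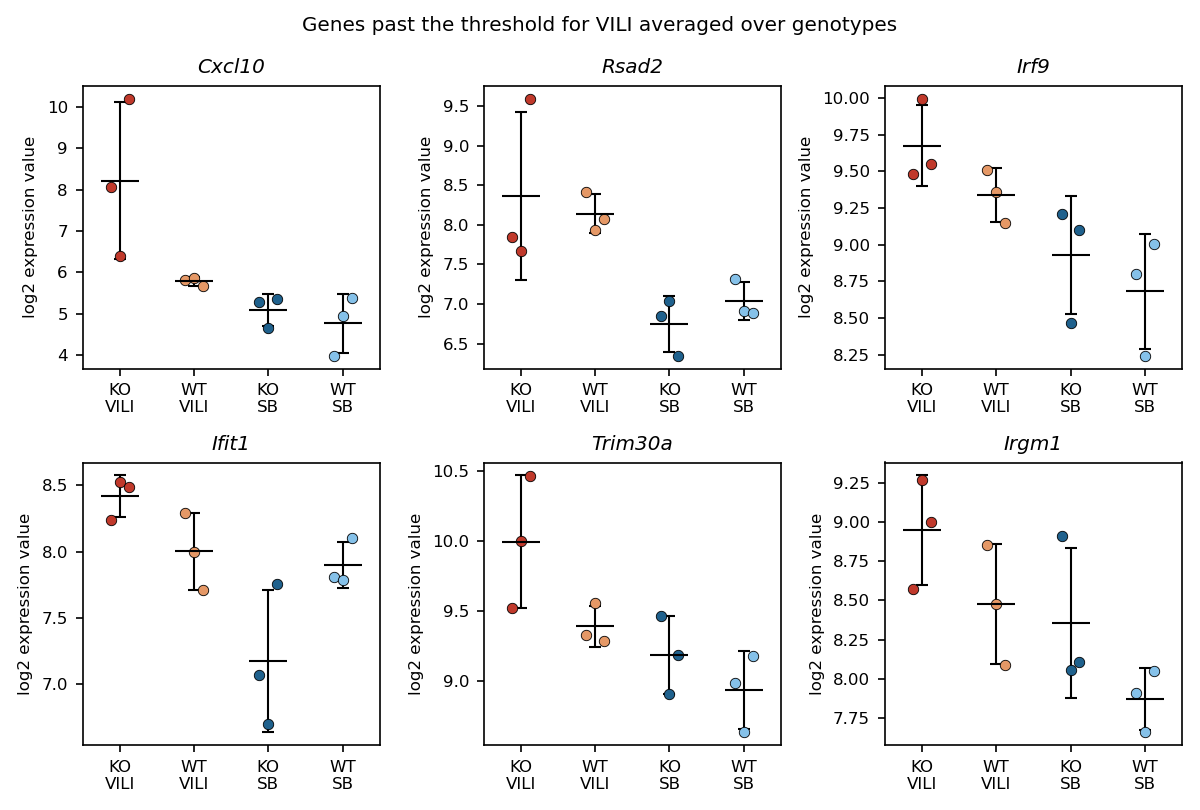
Log2 expression value (vertical axis) of the 6 genes past the threshold for VILI averaged over genotypes, 1 point per array in knockout VILI, wild type VILI, knockout SB and wild type SB, with a bar at the mean and whiskers of 1 SD (n = 3). Cxcl10 ranges from 6.40 to 10.19 in knockout VILI and from 5.67 to 5.87 in wild type VILI, while Irf9 averages 9.68 and 9.34 after VILI against 8.93 and 8.68 in SB.

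Markers of several cell types moved with VILI, those of neutrophils, endothelium and ciliated cells among them. The 9 tested of 12 neutrophil markers averaged 9.12 to 10.38 across knockout VILI arrays, 8.82 to 9.47 across wild type VILI arrays, 6.94 to 7.52 across knockout SB arrays and 6.57 to 6.99 across wild type SB arrays, and Retnlg, Ly6g and Camp did not pass the filter. The 10 endothelial markers, all tested, averaged 11.08 to 11.55 in knockout VILI, 11.43 to 11.49 in wild type VILI, 11.75 to 11.94 in knockout SB and 11.76 to 11.97 in wild type SB. The 7 ciliated cell markers, all tested, averaged 7.14 to 7.58 in knockout VILI, 7.15 to 7.44 in wild type VILI, 7.70 to 7.86 in knockout SB and 7.86 to 8.35 in wild type SB. By limma 4 of the 7 fell on average, against 9.39% of all genes. Among 12 macrophage and monocyte markers Ccr2 and Cd14 rose, against 8.42% of all genes. Sftpc and Slc34a2 of 7 tested type II epithelial markers fell, as did Rtkn2 of 7 type I epithelial markers. Acta2 and Tagln of 8 fibroblast and smooth muscle markers also fell. Of 6 markers of plasmacytoid dendritic cells, which make much type I interferon, 1 passed the filter. The part of these cells in the VILI changes of the interferon-stimulated genes was not tested.

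In knockout lungs, VILI was followed by a rise in 2 of the 32 genes, Cxcl10 and Ifit1, and a fall in 0. The share was 6.25%, against 2.76% of all genes that rose, 1.70% that fell and 4.47% in either direction, and at an unadjusted p under 0.05 it was 12 of 32, against 22.2% of all genes. As deposited 304 genes rose and 187 fell in this comparison, and after quantile normalization 271 and 259. The median change was 0.38, against 0.00 over all genes. A positive change was found in 24 of 32 genes, against 5569 of all 10996. Without knockout VILI replicate 3 the median change was 0.24. Groups did not overlap for 7 genes that lay higher (Ifit1, Rsad2, Trim30a, Rtp4, Irf9, Cxcl10 and Irf1), against 12.9% of all genes, and for 1 that lay lower, Bst2, against 10.6%.

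Cxcl10 averaged 8.22 ± 1.90 in knockout VILI and 5.09 ± 0.38 in knockout SB (SD, n = 3 each), a rise of 3.12 (SE 0.72, limma adjusted p = 0.0341), or 8.71-fold. Without knockout VILI replicate 3 the change was 2.13 and did not pass, and it also failed without any 1 of the knockout SB arrays or the wild type VILI arrays, at an adjusted p of 0.0509 to 0.0865. Over 22 alternatives 12 kept the call, with an adjusted p of 0.0183 to 0.161. Ifit1 averaged 8.42 ± 0.16 in knockout VILI and 7.17 ± 0.54 in knockout SB, a rise of 1.24 (SE 0.24, adjusted p = 0.0204), or 2.37-fold. It did not pass without knockout SB replicate 1 (1.19), knockout VILI replicate 2 (1.19) or knockout VILI replicate 3 (1.21), and 18 of 22 alternatives kept it (adjusted p = 0.0103 to 0.120).

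The 4 further genes with the largest knockout changes did not pass. Rsad2 had a change of 1.62 (SE 0.41, adjusted p = 0.0509), and it passed as the mean of its 3 kept probe sets, at 1.78 (adjusted p = 0.0166), and without knockout VILI replicate 1, at 1.88 (adjusted p = 0.0355), within 0.0166 to 0.199 over 22 alternatives. Without knockout VILI replicate 3 it was 1.01 (adjusted p = 0.0574). Zbp1, a sensor of Z-form nucleic acid that can trigger cell death, read 4.54, 5.18 and 6.74 in knockout VILI, against 4.24, 4.52 and 4.70 in knockout SB. Its change of 0.99 (adjusted p = 0.215) was 0.37 without knockout VILI replicate 3. Oasl2, of the oligoadenylate synthetase family, had a change of 0.97 (adjusted p = 0.134). Trim30a had a change of 0.81 (adjusted p = 0.0716), and only the fit without knockout VILI replicate 1 took it past the threshold, at 1.05 (adjusted p = 0.0194, in a range of 0.0194 to 0.233).

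In wild type lungs, 0 of 32 genes passed for VILI by limma, against 2.64% of all genes, and 3 had an unadjusted p under 0.05 (Rsad2, Irf9 and Irgm1), against 21.2% of all genes. As deposited 149 genes rose and 141 fell here, and after quantile normalization 138 and 199. The median of the 32 was 0.03, against -0.05 over all genes, and was -0.00034 after quantile normalization. Groups did not overlap for 5 genes that lay higher (Rsad2, Trim30a, Irf9, Cxcl10 and Irgm1), against 11.6% of all genes, and for 1 that lay lower, Ifit2, against 20.0%.

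The 6 largest changes in wild type were those of Rsad2, Cxcl10, Irf9, Irgm1, Gbp2 and Tap1. Rsad2 averaged 8.14 ± 0.25 in wild type VILI and 7.04 ± 0.24 in wild type SB, a change of 1.10 (SE 0.41, limma adjusted p = 0.162). Another probe set of the gene passed in wild type, as given above. The value itself passed in 4 of 22 alternatives (adjusted p = 0.0148 to 0.362), among them the fit without knockout VILI replicate 3, whose spread enters the pooled error, at 0.0297. Cxcl10 had a change of 1.01 (adjusted p = 0.454, and 0.62 without wild type SB replicate 1), Irf9 of 0.66 (adjusted p = 0.152) and Irgm1 of 0.60 (adjusted p = 0.227). Gbp2, a guanylate-binding protein of defence against vacuolar pathogens, had a change of -0.57 (adjusted p = 0.295), which was -0.26 without wild type SB replicate 3 and -0.88 without wild type SB replicate 1. Tap1, which carries peptides to class I molecules, read 8.14, 7.58 and 7.82 in wild type VILI and 8.45, 8.10 and 8.65 in wild type SB, a change of -0.56 (adjusted p = 0.240).

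**Figure D2:**
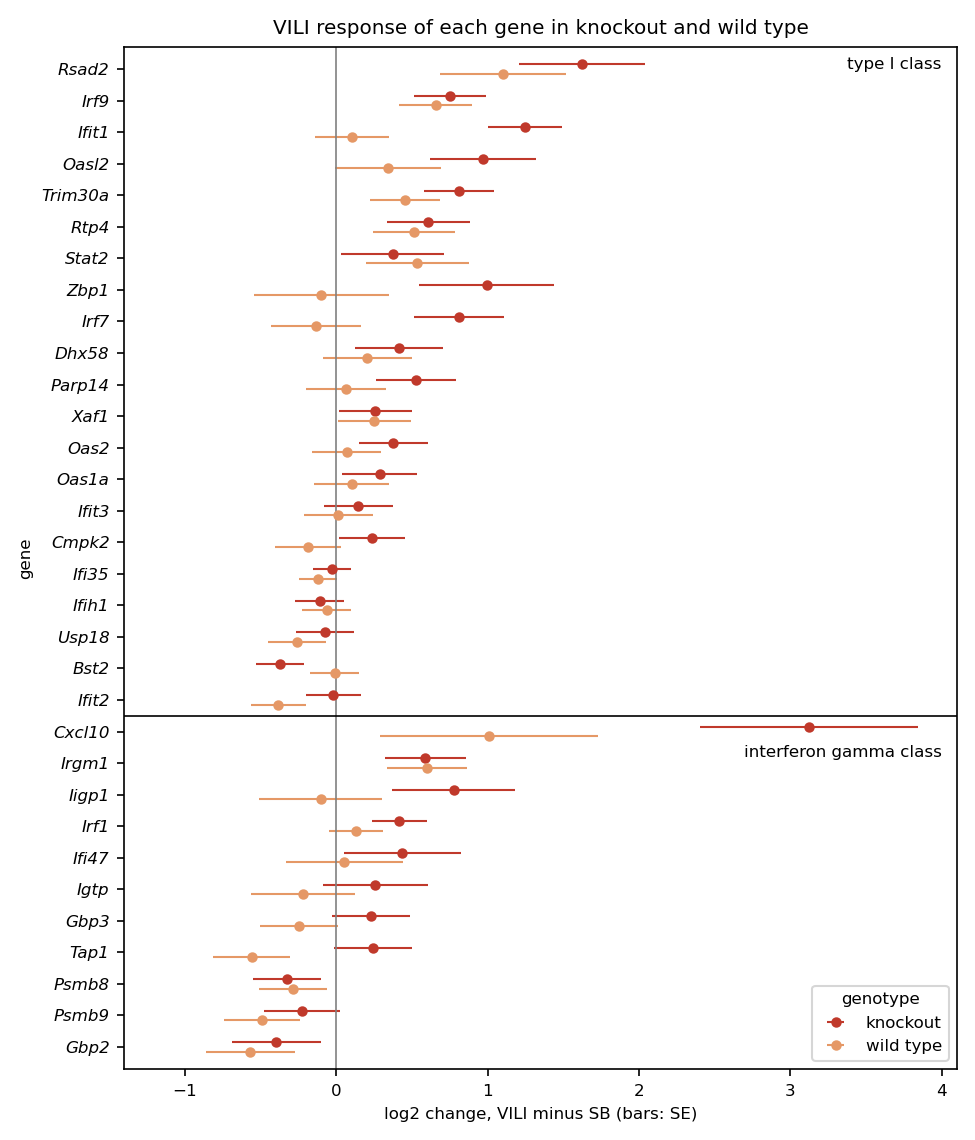
Log2 change of VILI minus SB (horizontal axis) for each of the 32 genes in knockout and in wild type lungs, with bars of 1 SE of the limma contrast and the classes in separate blocks down the vertical axis. Cxcl10 in knockout lies at 3.12 and Rsad2 at 1.62 and 1.10 in the 2 genotypes, while Gbp2 and Psmb9 lie below 0 in both.

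The regulators of the system were read singly. Irf7, the factor that amplifies type I interferon production, read 5.41, 6.08 and 6.88 in knockout VILI, 5.45, 5.45 and 5.22 in wild type VILI, 5.42, 5.05 and 5.48 in knockout SB and 5.43, 5.43 and 5.65 in wild type SB. It lay between 5.05 and 5.65 on every array except replicates 2 and 3 of knockout VILI. The VILI change was 0.81 in knockout (SE 0.30, adjusted p = 0.139) and -0.13 in wild type (SE 0.30, adjusted p = 0.842), and the knockout value was 0.43 without knockout VILI replicate 3 and 1.17 without knockout VILI replicate 1 (adjusted p = 0.0210, the only pass in a range of 0.0210 to 0.337).

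Stat2, the partner of Irf9, read 7.63, 8.37 and 7.81 in knockout VILI, 7.66, 7.49 and 7.003 in wild type VILI, 7.74, 7.01 and 7.95 in knockout SB and 7.24, 6.13 and 7.17 in wild type SB. The groups overlapped in all 4 pairwise comparisons. Its average VILI change was 0.46 (SE 0.24, adjusted p = 0.208), and its difference between knockout and wild type in SB was 0.72 (SE 0.34, adjusted p = 0.503). Without wild type SB replicate 2, whose value of 6.13 was the lowest of the 12, they were 0.28 and 0.36. The other kept probe set gave 0.78 and 0.51 for the same comparisons.

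Irf1, the transcription factor that interferon gamma induces first, read 9.60, 9.78 and 9.52 in knockout VILI, 9.19, 9.03 and 9.33 in wild type VILI, 9.40, 8.86 and 9.38 in knockout SB and 8.73, 9.17 and 9.27 in wild type SB. The 3 knockout VILI arrays lay above all 9 others. The VILI change was 0.42 in knockout (SE 0.18, adjusted p = 0.196) and 0.13 in wild type (SE 0.18, adjusted p = 0.724), and 0.27 on average (SE 0.13, adjusted p = 0.153). The knockout change was 0.24 without knockout SB replicate 2.

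The genotypes were compared after VILI, where 0 of 32 genes passed by limma, against 0.100% of all genes. At an unadjusted p under 0.05 the count was 5 (Cxcl10, Zbp1, Irf7, Trim30a and Irf1), a share of 15.6%, against 6.88% of all genes. The median difference of knockout minus wild type was 0.33, against -0.01 over all genes. Higher in knockout were 29 of 32 genes, all 11 tested interferon gamma class genes among them, against 5249 of all 10996 genes. The 8 fibroblast and smooth muscle markers, all tested, averaged 11.46 to 11.67 in knockout VILI and 11.82 to 12.02 in wild type VILI, without overlap, and 6 of the 8 had an unadjusted p under 0.05. In SB these markers averaged 11.54 to 11.89 in knockout and 11.92 to 12.22 in wild type, also without overlap. There 5 of the 8 had an unadjusted p under 0.05, against 10.1% of all genes. The 7 tested T and NK cell markers had a median difference of 0.88 in SB and 0.37 after VILI. Of them 4 had an unadjusted p under 0.05 in SB and 1 after VILI, against 10.1% and 6.88% of all genes. The 6 tested B cell markers had medians of 1.07 and 1.20 in the same comparisons, with 0 at that p in either. The part of all these markers in the genotype differences of the members was not tested. The members share their 6 arrays, so their counts are not independent of one another. Without replicate 3 of both knockout groups the median difference of the 32 genes after VILI was 0.22.

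Cxcl10 had the largest difference between the genotypes after VILI, 2.43 (SE 0.72, limma adjusted p = 0.456), and 1.44 without knockout VILI replicate 3. Groups did not overlap for Cxcl10 and Irf1, against 6.63% of all genes that lay higher, and for 0 genes that lay lower, against 8.10%. The difference was 1.18 for Zbp1 (adjusted p = 0.635) and 0.75 for Irf7 (adjusted p = 0.691). Both were lower without replicate 3 of knockout VILI, at 0.55 and 0.37. The wild type VILI mean of Zbp1 lay below the medians of those arrays, which ran from 4.45 to 4.49. Of the Irg GTPases, which attack the vacuoles of intracellular parasites, Ifi47 had a difference of 0.70 (adjusted p = 0.753), Igtp of 0.67 (adjusted p = 0.737) and Iigp1 of 0.64 (adjusted p = 0.776). Without wild type VILI replicate 3, the lowest of the VILI arrays for all 3 genes, the differences were 0.24 for Ifi47, 0.46 for Igtp and 0.35 for Iigp1.

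In SB lungs, 0 of 32 genes passed between the genotypes by limma, against 0.109% of all genes, and 2 had an unadjusted p under 0.05 (Ifit1 and Psmb8), against 10.1% of all genes. The median was 0.03 and turned to -0.02 with arrays centred on their medians, where the median of all genes was -0.11 in place of -0.06. Ifit1 averaged 7.17 ± 0.54 in knockout SB and 7.90 ± 0.17 in wild type SB, a difference of -0.72 (SE 0.24, adjusted p = 0.370). Psmb8, an inducible subunit of the immunoproteasome, averaged 9.78 ± 0.09 in knockout SB and 9.28 ± 0.08 in wild type SB, a difference of 0.50 (SE 0.22, adjusted p = 0.471). The difference was 0.48 for Irgm1 (adjusted p = 0.562), 0.32 for Cxcl10 (adjusted p = 0.919) and 0.31 for Ifi47 (adjusted p = 0.821). Without knockout SB replicate 1 it was 0.21 for Irgm1 and 0.053 for Ifi47, and without wild type SB replicate 1 it was -0.072 for Cxcl10. Groups did not overlap for Psmb8 and Irgm1 that lay higher, against 3.76% of all genes, and for Ifit1 that lay lower, against 11.5%. Averaged over both treatments, 0 of 32 genes passed between the genotypes, against 0.455% of all genes, and 6 had an unadjusted p under 0.05, against 14.6%.

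The interaction asked whether the VILI response of knockout differed from that of wild type. By limma 0 of 32 genes passed, against 0.00% of all genes, and 3 had an unadjusted p under 0.05, against 2.62% of all genes. They were Ifit1 at 1.14 (SE 0.35), Irf7 at 0.94 (SE 0.42) and Tap1 at 0.80 (SE 0.36), each at an adjusted p of 1. The median of the interaction was 0.30, against 0.06 over all genes. When 1 array was left out it ran from 0.17 (without knockout SB replicate 2) to 0.47 (without knockout VILI replicate 1). The knockout response exceeded the wild type response in 27 of 32 genes, or 84.4%, against 60.5% of all genes. Because no gene passed, the larger knockout changes of Cxcl10 and Ifit1 are not shown to differ from those of wild type.

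The type I and interferon gamma classes were set side by side. The class medians depended on single arrays. In wild type VILI against wild type SB, the type I class had a median change of 0.07 with 13 of 21 genes positive. The interferon gamma class had one of -0.22 with 4 of 11 positive. Of all 10996 genes, 4637 were positive in that comparison. When 1 array was left out the type I median ran from -0.02 (without wild type SB replicate 2) to 0.19 (without wild type SB replicate 3), and the interferon gamma median from -0.47 (without wild type VILI replicate 1) to -0.01 (without wild type VILI replicate 3). In knockout VILI against knockout SB the medians were 0.38 with 16 of 21 positive and 0.26 with 8 of 11 positive. Of all 10996 genes, 5569 were positive in that comparison. There the type I median ran from 0.34 (without knockout SB replicate 2) to 0.64 (without knockout VILI replicate 1), and the interferon gamma median from 0.084 (without knockout SB replicate 2) to 0.51 (without knockout SB replicate 1), so that the ranges overlapped. The type I medians of 0.38 in knockout and 0.07 in wild type are the values of Oas2. Its probe set exceeded the array median on 3 of 12 arrays, the fewest the filter allows. Leaving out Irf1 and Cxcl10, which answer to both interferons, put the interferon gamma class at 0.24 in knockout and -0.25 in wild type. Between the genotypes after VILI the medians were 0.24 for the type I class and 0.47 for the interferon gamma class. The type I median ran from 0.16 (without knockout VILI replicate 3) to 0.44 (without knockout VILI replicate 1) and the interferon gamma median from 0.28 (without wild type VILI replicate 3) to 0.65 (without wild type VILI replicate 1), again with overlap. Both classes were read on the same arrays, so overlap of these ranges cannot decide whether the classes differ. On each array the interferon gamma mean exceeded the type I mean. The excess was 1.01, 0.76 and 1.05 in knockout VILI and 0.75, 0.47 and 0.51 in wild type VILI. It was 1.04, 0.69 and 1.09 in knockout SB and 0.66, 0.79 and 0.93 in wild type SB. A test of the difference between the classes was not run.

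The other VILI changes of the interferon gamma class did not pass in either genotype, and are given by function. The antigen-processing genes Psmb8 and Psmb9 had changes of -0.32 and -0.23 in knockout and of -0.29 and -0.49 in wild type, all below 0. Tap1 had 0.24 in knockout and -0.56 in wild type. The guanylate-binding genes Gbp2 and Gbp3 had changes of -0.40 and 0.23 in knockout and of -0.57 and -0.25 in wild type. Of the Irg GTPases Irgm1, Iigp1, Ifi47 and Igtp, the values were 0.59, 0.77, 0.44 and 0.26 in knockout and 0.60, -0.10, 0.05 and -0.22 in wild type.

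Among type I genes the average VILI changes of close relatives and neighbours were unequal. Ifit1, Ifit2 and Ifit3, which lie near one another on chromosome 19, had average changes of 0.67, -0.20 and 0.08, and Ifit2 and Ifit3 did not pass (adjusted p = 0.304 and 0.760). Rsad2 and Cmpk2, a mitochondrial nucleotide kinase, lie near one another on chromosome 12, and had average changes of 1.36 and 0.03 (adjusted p = 0.0110 and 0.926). None of the further type I genes named here passed. Oas1a, Oas2 and Oasl2 had 0.19, 0.22 and 0.66, with Oasl2 at an adjusted p of 0.0867. The RNA sensors Ifih1 and Dhx58 had -0.09 and 0.31. Usp18, which shuts down the type I receptor, had -0.17. Rtp4, a receptor transport protein, had 0.56 (adjusted p = 0.0638). Bst2, which tethers budding viruses to the cell, read 9.68, 9.42 and 9.28 in knockout VILI, against 9.79, 9.96 and 9.75 in knockout SB, a change of -0.37 (adjusted p = 0.199).

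**Figure D3:**
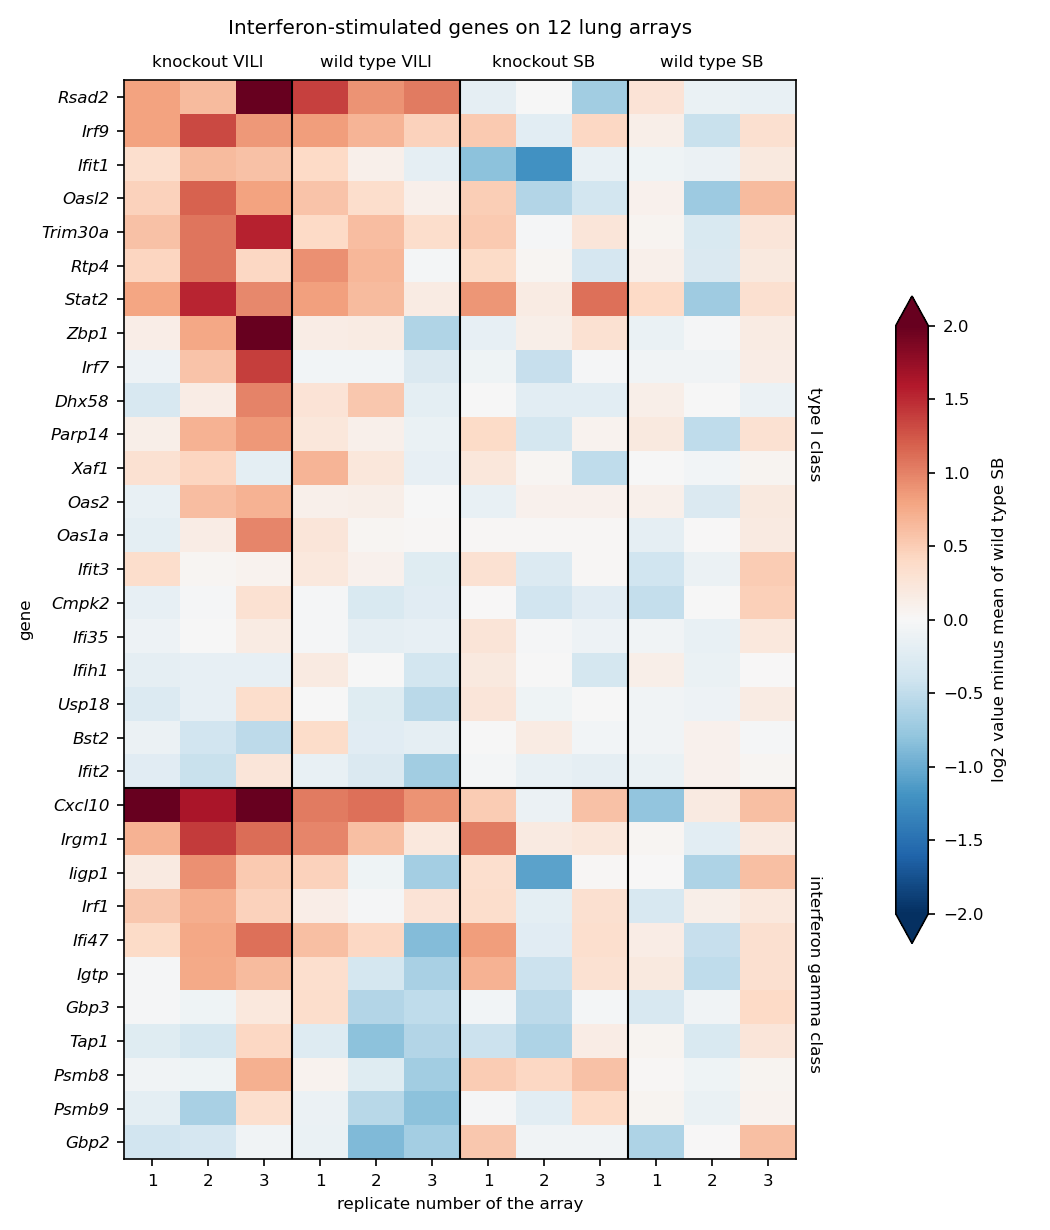
Log2 value of each of the 32 genes on each of the 12 arrays minus the gene's mean in wild type SB, as colour, with genes down the page by class and the groups side by side. Replicate 3 of knockout VILI holds the highest value of 14 genes and replicate 2 that of 9.

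Single arrays held the highest values of many members. Knockout VILI replicate 3 held the highest value of 14 of 32 genes (43.8%), against 13.6% of all genes, and knockout VILI replicate 2 that of 9 (28.1%), against 9.66%. Wild type VILI replicate 3 held the lowest value of 8 and wild type SB replicate 2 that of 7. The share of all genes lowest on these arrays was not counted, so these 2 counts have no background. The mean of the type I class was 8.07, 8.37 and 8.64 in knockout VILI, 8.27, 8.10 and 7.83 in wild type VILI, 8.06, 7.75 and 7.87 in knockout SB and 7.91, 7.73 and 8.11 in wild type SB. The mean of the interferon gamma class was 9.08, 9.13 and 9.69 in knockout VILI, 9.02, 8.57 and 8.33 in wild type VILI, 9.10, 8.44 and 8.96 in knockout SB and 8.56, 8.52 and 9.04 in wild type SB. Both means were highest on knockout VILI replicate 3, and their lowest values fell on wild type SB replicate 2 for the type I class and wild type VILI replicate 3 for the interferon gamma class. On knockout VILI replicate 3 the 7 tested of 13 T and NK cell markers averaged 7.40 and the 6 tested of 10 B cell markers 9.80. The T and NK cell markers ranged from 6.33 to 7.40 in knockout VILI, 6.06 to 6.76 in wild type VILI, 6.47 to 7.04 in knockout SB and 5.56 to 6.29 in wild type SB, and Cd3e, Cd4, Cd8a, Lck, Klrb1c and Ncr1 did not pass the filter. The B cell markers ranged from 5.94 to 9.80, 6.15 to 6.58, 5.91 to 8.88 and 5.17 to 6.40 in the same groups, and Cr2, Blk and Pax5 were among those that did not pass. The part of these cells in the levels of the interferon-stimulated genes was not tested.

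**Figure D4:**
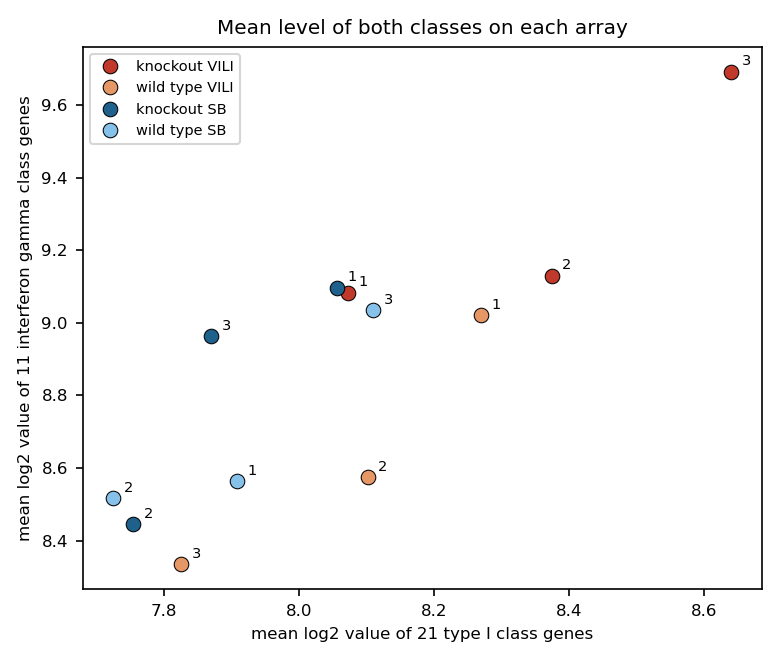
Mean log2 value of the 21 type I class genes (horizontal axis) and of the 11 interferon gamma class genes (vertical axis) on each array, 1 numbered point per array, coloured by group. Knockout VILI replicate 3 lies furthest up and right, at 8.64 and 9.69, and wild type VILI replicate 3 lowest on the vertical axis, at 8.33.

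Genes that did not pass the filter were few and mostly near the bottom of the scale. Mx1, a GTPase that traps viral nucleoprotein, read 3.91, 4.38 and 6.89 in knockout VILI, 3.26, 2.96 and 2.69 in wild type VILI, 2.79, 3.27 and 2.79 in knockout SB and 2.81, 2.81 and 3.07 in wild type SB. All 3 knockout VILI values lay above the other 9, and only the 1 on replicate 3 exceeded its array's median. Cxcl9, a chemokine that interferon gamma induces, read 3.55, 2.59 and 6.86 in knockout VILI, 2.66, 2.41 and 2.57 in wild type VILI, 3.41, 2.55 and 5.09 in knockout SB and 2.55, 2.34 and 2.56 in wild type SB. Its highest values were on replicate 3 of both knockout groups, the arrays with the highest B cell markers. Oasl1 reached 3.68 on knockout VILI replicate 3 and at most 2.30 elsewhere, and Mx2 and Oas3 lay at or below 3.05 on every array. These 5 genes were not tested. Isg15 has only a probe set that it shares with another gene here, so no value was taken from it, and Ifi44 was not analysed.

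Promoter letters were set beside the changes for the 25 tested members in the promoter table. The 12 genes with an ISRE core had a median VILI change of 0.32, and 5 of them passed the test. The 13 without it had a median of 0.03, and 1 of them passed, Irf9. The range was -0.48 to 2.07 with the core and -0.36 to 0.70 without it. Gbp2 and Bst2 hold the core and had changes of -0.48 and -0.19, and Oasl2 lacks it in this window and had 0.66, and none of these passed. These values are a description of the genes at hand.

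**Figure D5:**
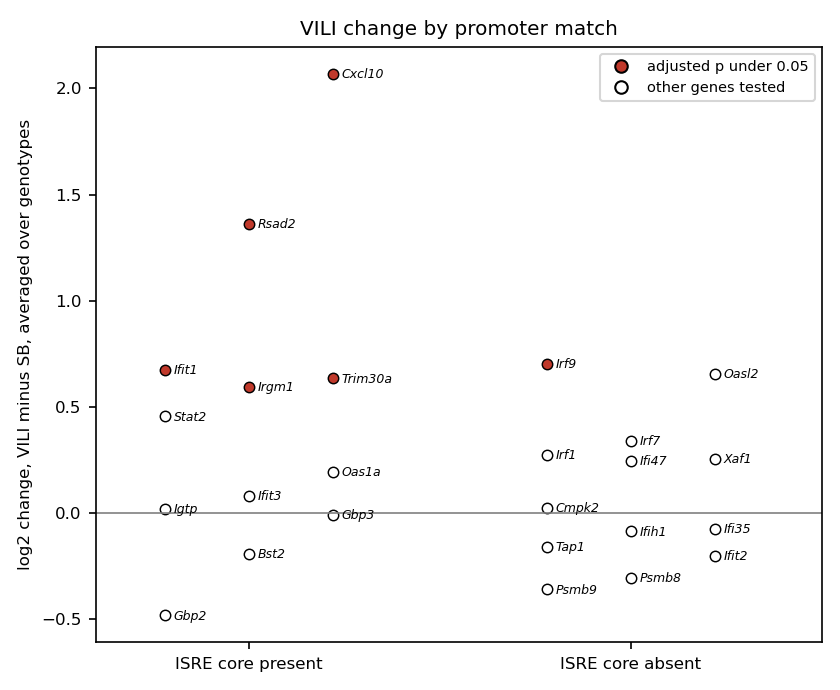
Log2 change of VILI minus SB averaged over genotypes (vertical axis) for the 25 tested genes with a promoter, with the ISRE core present in the 250 bases before the start (12 genes, left) or absent (13 genes, right), filled where the adjusted p is under 0.05. The filled points are Cxcl10, Rsad2, Ifit1, Trim30a and Irgm1 on the left and Irf9 on the right.

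Of 1 ligand and 6 receptor genes tested, 1 receptor rose with VILI averaged over genotypes, against 8.42% of all genes. In either direction 17.8% of all genes were called. Of 19 interferon genes on the list, only Ifna2 passed the filter, at 5.37 to 5.84 on the 12 arrays, with an average VILI change of -0.09 (adjusted p = 0.525). Interferon gamma, Ifng, lay between 2.41 and 2.47 and interferon beta, Ifnb1, between 2.01 and 2.06 on every array, near the bottom of the scale, and were not tested. The type I receptor chains Ifnar1 and Ifnar2 had changes of -0.03 and -0.13 on average, and the interferon gamma receptor chains Ifngr1 and Ifngr2 of 0.11 and 0.14, and none passed.

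Ifnlr1, the chain that makes cells sensitive to interferon lambda, rose on average with VILI by 0.70 (SE 0.20, limma adjusted p = 0.0328). It read 6.44, 5.88 and 5.30 in knockout VILI, 6.33, 6.68 and 6.28 in wild type VILI, 4.90, 4.84 and 4.83 in knockout SB and 6.48, 6.01 and 5.65 in wild type SB. The 3 knockout SB values lay closely together, below all 9 others. The VILI change was 1.02 in knockout (adjusted p = 0.0628) and 0.38 in wild type (adjusted p = 0.471), and neither passed. The difference of knockout minus wild type in SB was -1.19 (adjusted p = 0.243). Its partner Il10rb had a VILI change of -0.21 (adjusted p = 0.0850).

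The wider interferon system had 73 tested genes (signal transducers, inhibitors, nucleic acid sensors and further induced genes, with ligands and receptors). Of these, 13 rose and 1 fell with VILI on average, against 8.42% of all genes that rose and 9.39% that fell. Counted in either direction, 17.8% of all genes were called, and the share of the 73 lay close to that. At an unadjusted p under 0.05 the count was 25 of 73, also close to the 33.9% of all genes. Of 9 inhibitors of interferon signalling 4 rose: Socs3 at 2.02 (adjusted p = 0.00265), Ptpn2 at 0.81 (adjusted p = 0.00379), Ptpn1 at 0.49 (adjusted p = 0.00505) and Ptpn11 at 0.31 (adjusted p = 0.0152). Stat3, which interleukins activate more than interferons do, was the only 1 of 9 transducers called, at 0.51 (adjusted p = 0.000709). Among 10 nucleic acid sensors and their kinases, Sting1, the adaptor for cytosolic DNA, rose by 0.85, the kinase Tbk1 by 0.39 and the RNA-editing enzyme Adar by 0.45.

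Of 38 further interferon-induced genes, 4 rose and 1 fell on average, against 8.42% of all genes that rose and 9.39% that fell. In either direction 17.8% of all genes were called. At an unadjusted p under 0.05 the count was 9 of 38, against 33.9% of all genes. The median change of the 38 was -0.03, the same as over all genes. Negative changes were found in 21 of them, against 5918 of all 10996 genes. Ifitm6, a membrane protein that myeloid cells express, rose by 3.13 (adjusted p = 0.00508), Slfn8, of the Schlafen family, by 2.10 (adjusted p = 0.00282), Ifi204, a DNA-binding PYHIN protein, by 2.09 (adjusted p = 0.00346) and Isg20, an exonuclease, by 0.50 (adjusted p = 0.00404). Psmb10, the third inducible proteasome subunit, fell by 0.39 (adjusted p = 0.0300), in the same direction as the values of Psmb8 and Psmb9. In knockout alone 8 of the 73 rose, against 2.76% of all genes, and in wild type alone 1, Stat3, against 1.36%. Between the genotypes 0 of 73 passed by limma after VILI, with 5 at an unadjusted p under 0.05, against 6.88% of all genes, and 0 in SB, with 7, against 10.1% of all genes, both counts being close to the background.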

How the data were processed

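RNA of 12 mouse lungs was measured on 12 Affymetrix arrays, and groups were taken from the sample titles. The deposited values were log2 expression values normalized by the authors. MAS5 and GCRMA are named in the submitters' processing notes, with their roles, order and versions not given. Of 45101 probe sets, 64 controls were left out, 34945 of the rest had 1 gene symbol, 932 several and 9160 none, per the array's deposited annotation, and probe sets with several symbols were not used. A probe set was kept where at least 3 of the 12 arrays exceeded their median (23082 kept), and each of 10996 genes was read from the kept probe set that averaged highest.

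Group means were fitted with limma 3.58.1 in R 4.3.3 (lmFit, and eBayes with a mean-variance trend) on all 12 arrays, with 7 contrasts, 2-sided tests and Benjamini-Hochberg adjustment over 10996 genes at 0.05. The contrasts share arrays and are not independent. Each p-value sets a contrast against the spread between arrays within groups, pooled over all groups and moderated by eBayes. Tables, promoter searches and figures were made with Python 3.11.15, pandas 2.3.3, numpy 2.4.6 and matplotlib 3.10.9. The fit was tested on simulated data.

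Genes named in the text were members past the threshold in any contrast, the 6 members with the largest absolute change in each pairwise contrast, Irf1, Irf7, Irf9 and Stat2, pathway genes past the threshold, and measured ligands and receptors; further members are named where a function or a count calls for them, after their values were seen. The members and lists were chosen with earlier results of these data known. Deviations of same-numbered arrays from their group means correlated at 0.23, 0.53 and 0.32 between knockout SB and wild type SB. In the other comparisons they correlated at -0.04 to 0.43. Replicate number was not in the main fit, so the SE and p-values given for the genotypes in SB take no account of such pairing. It entered as a block in alternatives only. Alternatives changed the filter, the scaling, the choice of probe set, the trend, the arrays fitted and the replicate block, and left out each array in turn.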

Additional observations from a re-analysis of the deposited data

Results flagged for a closer look

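For 4 genes every array, set against the mean of the group it is compared with, moved in opposite directions in the 2 genotypes or the 2 treatments. The 4 genes were picked for this direction, which was not tested as such, and the interaction of each has a limma adjusted p of 1. Ifit1 lay higher in knockout than in wild type after VILI and lower in SB, with an interaction of 1.14. Irf7 lay higher in knockout after VILI and lower in SB, and higher with VILI in knockout and lower in wild type, with an interaction of 0.94 for both. Gbp3 lay higher in knockout after VILI and lower in SB, with an interaction of 0.48. Cmpk2 lay higher with VILI in knockout and lower in wild type, with an interaction of 0.42.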

How the results depend on the processing

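The count of members called for VILI in knockout (2) was 3 with the mean of probe sets (Rsad2 added), 1 with no filter on low values, 0 with only the 6 arrays of those groups, 1 without replicate 3 of both knockout groups, and 0 to 5 when 1 array was left out, being 0 without knockout SB replicate 1 or knockout VILI replicate 3 and 5 without knockout VILI replicate 1. In wild type the count was 0, against 2.64% of all genes. It was 1, Rsad2, with the mean of probe sets (2.68% of all genes) and with only the 6 arrays (4.32%). It was also 1, Rsad2, without replicate 3 of both knockout groups (5.94%). When 1 array was left out it was 0 to 1, being 1 without knockout VILI replicate 3 (2.53%). Averaged over genotypes (6) it was 3 to 7, being 3 without wild type VILI replicate 2 or knockout VILI replicate 2. The genotype and interaction counts were 0 under every alternative run, against at most 1.46% of all genes. With the replicate block the counts were 2 in knockout, against 6.07% of all genes, and 0 in wild type, against 4.02%. On average the count was then 6, against 21.0%, with Rtp4 called and Irgm1 not. Between the genotypes it was 0. A block within the SB arrays, chosen after seeing the data, also gave 0. The Cxcl10 difference between the genotypes in SB (0.32) ran from -0.072 without wild type SB replicate 1 to 0.622 without wild type SB replicate 3, and the cause was not tested. Signal limits 5 members, which lay near the bottom of the scale except Mx1 on knockout VILI replicate 3 and Cxcl9 on replicate 3 of both knockout groups.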
